A study of Mus musculus with 6 samples.

Results

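This account describes genes of meiosis and spermatogenesis in mouse embryonic stem cells that had lost Ddx5, an RNA helicase gene. The members were chosen by name, from 9 genes of meiotic entry, the synaptonemal complex, meiotic cohesin and spermatocytes. Of these, Stra8, Sycp1, Sycp3, Hormad1, Smc1b, Tex11, Taf7l and Slc25a31 were measured, 8 genes of 10989 in all; Tex101 was not analysed here. RNA was sequenced from 4 knockout (KO) libraries, each of 1 monoclonal Ddx5-/- line made with a Cas9 nickase and paired guides against the second exon, and from 2 wild-type (WT) libraries with intact Ddx5. All cells were MPI-II embryonic stem cells at passages 13 to 18. They shared a feeder layer, 15% fetal bovine serum, 1000 U/ml leukemia inhibitory factor, 1 μM of the MEK inhibitor PD0325901 and 3 μM of the GSK3 inhibitor CH99021. The labels number the WT libraries as replicates without saying that they are separate cultures, so p-values reflect how far these particular samples differ, which may be technical on the WT side. Sequencing in triplicate is stated for the series, while the labels give 4 KO lines and 2 WT replicates, and the labels were followed. Each KO line has 1 library, so line and library cannot be told apart.

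Meiosis is the pair of divisions that makes haploid gametes. STRA8, induced by retinoic acid, starts the programme. Cohesin rings with meiotic subunits hold sister chromatids in loops along an axis, HORMA-domain proteins mark that axis, and the synaptonemal complex zips paired homologues together while breaks are repaired as crossovers. Embryonic stem cells do not enter meiosis, and many of these genes are held down there by DNA methylation and by PRC1.6, a Polycomb complex whose MAX and MGA subunits recognise the letters CACGTG and whose E2F6 subunit recognises TCCCGC.

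Of the 8 genes measured, 5 rose in the KO lines (Stra8, Smc1b, Slc25a31, Hormad1 and Tex11), none fell, and 3 did not pass the test (Taf7l, Sycp3 and Sycp1). None fell at an unadjusted p under 0.05 either. Genes were tested in limma on log2 of the scaled value plus 1, and a gene was called where its Benjamini-Hochberg adjusted p, taken over all 10989 genes, was below 0.05. Over all genes, 9.75% were called higher and 7.34% lower in the KO lines. The median log2 change was 0.84 over the 8 genes and 0.04 over all genes. In 7 of the 8, every KO line was above both WT libraries, as in 24.1% of all genes. In 0 of the 8 was every KO line below both, against 19.6% of all genes. Levels are normalized scores in deposited units, with no fixed unit. Each gene in the table reached 80 units in at least 2 libraries, and Stra8 and Taf7l did so in KO lines alone, so genes that entered in this way were high in KO lines by construction. Of the 413 such genes, 160 were called higher (38.7%), against 911 of the 10426 that reached 80 units in both groups (8.74%).

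Ddx5 measured 5854, 8450, 12793 and 5659 units in KO lines 1 to 4 and 36433 and 36436 units in the WT libraries (log2 change -2.23, adjusted p = 0.00807, limma). The embryonic stem cell identity of the libraries was checked with 7 measured markers, whose summed level was 78603 to 86846 units in KO lines, and 81791 and 74380 units in WT replicates 1 and 2; 1 (Nanog) was called higher and 1 (Klf4) lower. Markers of feeder fibroblasts moved with the groups. Their summed level over 18 measured genes of 20 listed was 43041 to 46766 units in KO lines. In WT replicates 1 and 2 it was 94698 and 63795 units. Fn1, which was not called, made up most of the sum in each KO line. It measured 36452 units in every KO line and in WT replicate 1, and 29855 units in WT replicate 2. Of the 18, 16 were called lower, against 7.34% of all genes. Col6a1 and Col6a2 measured 4 to 8 units in KO lines. In bulk RNA, fewer cells of a type and less RNA per cell cannot be told apart. The part of the fibroblast RNA in the differences below was not tested. None of the 9 spermatid markers and none of the 11 markers of gonadal somatic cells on the lists was among the genes analysed. WT replicate 2 differed in its low end: 131 genes were at 0 in it, and 13 to 19 in each other library. The WT libraries also differed over the 603 genes of chromosome 8, on which none of the members lies. The median log2 deviation from the mean over libraries was -0.34 in WT replicate 1 and 0.07 in WT replicate 2. It was -0.32 in KO line 1 and 0.16 to 0.22 in KO lines 2 to 4. The cause was not tested.

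The promoters shown are those of the 4 called genes that have one in the RefSeq table, and that of Sycp1, whose groups overlapped. They carry letters that PRC1.6 subunits and retinoic acid receptors are known to recognise. The promoters of Sycp3 and Taf7l also carry such letters and are not shown. Each sequence runs 5′ to 3′ from 250 bases before to 50 bases after the RefSeq start site (build GRCm38.p6). Capitals mark CACGTG. They also mark TCCCGC, which reads GCGGGA on the other strand. The last motif in capitals is AGGTCA, which reads TGACCT on the other strand.
Stra8 (chr6:34920698-34920997, plus strand): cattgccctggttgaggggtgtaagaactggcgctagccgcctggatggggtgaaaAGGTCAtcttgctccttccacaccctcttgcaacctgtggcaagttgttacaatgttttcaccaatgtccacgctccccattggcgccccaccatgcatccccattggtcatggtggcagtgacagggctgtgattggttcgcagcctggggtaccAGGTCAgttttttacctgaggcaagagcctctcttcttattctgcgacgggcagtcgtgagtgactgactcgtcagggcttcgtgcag
Hormad1 (chr3:95559427-95559726, plus strand): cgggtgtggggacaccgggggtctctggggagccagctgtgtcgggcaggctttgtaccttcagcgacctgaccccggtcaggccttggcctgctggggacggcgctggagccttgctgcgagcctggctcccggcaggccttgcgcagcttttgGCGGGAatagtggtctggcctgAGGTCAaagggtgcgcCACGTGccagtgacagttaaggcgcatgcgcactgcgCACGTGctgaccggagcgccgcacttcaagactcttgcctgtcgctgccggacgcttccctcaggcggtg
Slc25a31 (chr3:40708621-40708920, plus strand): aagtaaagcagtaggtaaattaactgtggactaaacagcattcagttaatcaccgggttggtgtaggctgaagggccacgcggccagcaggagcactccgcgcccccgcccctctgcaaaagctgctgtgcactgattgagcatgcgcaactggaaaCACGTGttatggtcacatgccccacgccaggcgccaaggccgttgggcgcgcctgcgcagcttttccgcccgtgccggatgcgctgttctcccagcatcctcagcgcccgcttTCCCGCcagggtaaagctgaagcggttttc
Smc1b (chr15:85131908-85132207, minus strand): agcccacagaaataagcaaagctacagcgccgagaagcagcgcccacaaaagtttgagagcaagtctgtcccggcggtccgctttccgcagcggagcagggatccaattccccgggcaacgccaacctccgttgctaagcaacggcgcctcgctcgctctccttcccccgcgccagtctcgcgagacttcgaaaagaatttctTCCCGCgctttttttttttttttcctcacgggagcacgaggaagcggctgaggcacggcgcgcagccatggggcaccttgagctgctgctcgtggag
Sycp1 (chr3:102936051-102936350, minus strand): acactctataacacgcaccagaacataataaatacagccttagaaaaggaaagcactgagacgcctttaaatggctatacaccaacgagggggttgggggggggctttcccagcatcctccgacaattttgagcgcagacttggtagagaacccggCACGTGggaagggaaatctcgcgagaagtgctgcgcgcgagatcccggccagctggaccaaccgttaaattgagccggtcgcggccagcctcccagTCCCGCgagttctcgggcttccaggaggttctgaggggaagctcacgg

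CACGTG occurred in 5 of the 7 members' promoters in the table, those of Hormad1, Slc25a31, Taf7l, Sycp3 and Sycp1. Hormad1 and Sycp3 held it at 2 places each. It occurred in 7.15% of all 32851 promoters of this length and in 10.4% of the 10625 that belong to measured genes. Counted from the start site, the letters began at -57 and -20 in Hormad1 and at -49 in Taf7l. Hormad1 has 2 RefSeq start sites, and the promoter of the first listed was used. TCCCGC was also in 5 of the 7 (not in Stra8 or Taf7l), against 20.0% of all promoters and 36.6% of those of measured genes. AGGTCA, the repeat unit bound by retinoic acid receptors, was in 3 of the 7. Stra8 held it at 2 places, -194 and -38 from the RefSeq start, which lies 785 bases inside the GENCODE gene. AGGTCA was in 16.3% of all promoters and in 12.1% of those of measured genes. The 7 promoters had between 10 (Stra8) and 29 (Smc1b) CpG dinucleotides, and the median was 7 over all promoters and 21 over those of measured genes. Whether these letters bear on the change of a gene was not tested. A match is a string of letters, not a measured binding site.

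Stra8, the gene for entry into meiosis, had the largest log2 change of the 8 with a pseudocount of 1 and all libraries. It did not with a pseudocount of 5 (0.94, against 0.98 for Smc1b and 0.95 for Hormad1) or without WT replicate 2 (1.38, against 1.42 for Slc25a31). The gene lies on chromosome 6 (ENSMUSG00000029848, 34920163 to 34939344, plus strand, build mm10). It measured 111, 92, 76 and 136 units in KO lines 1 to 4, and 30 and 8 units in WT replicates 1 and 2. The groups did not overlap, and the lowest KO line stood 2.53-fold above the higher WT library. The log2 change was 1.87 (SE 0.382, 95% interval 0.97 to 2.77, adjusted p = 0.0212, limma). The WT libraries differed from each other by 0.98 on the log2 scale, the widest WT gap among the 8 genes. Its size depended on them, at 2.36 without WT replicate 1 and 1.38 without WT replicate 2, where the call was lost (adjusted p = 0.0507). KO line 4 was the highest, at 1.46-fold the mean of the other lines. That line also had a higher median over the 518 genes of chromosome 6, a log2 deviation of 0.42 against -0.08 to -0.04 in the other KO lines. With each chromosome centred on its median in every library, the change of Stra8 was 1.70 (adjusted p = 0.0163).

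**Figure D1:**
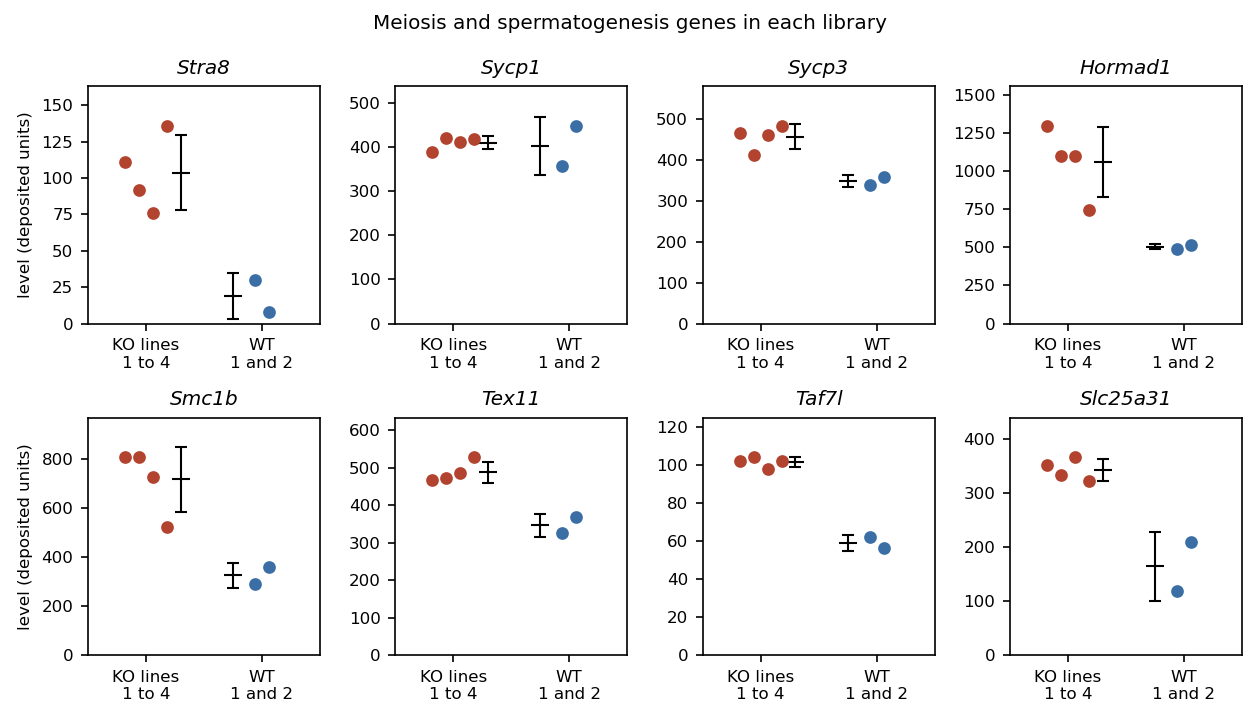
Level of the 8 measured genes in each library, in deposited units from 0, with KO lines 1 to 4 in red on the left and WT replicates 1 and 2 in blue on the right. Horizontal ticks with bars are group means and SDs (n = 4 and n = 2); in every panel except Sycp1 the KO lines lie above both WT libraries.

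Smc1b and Hormad1, which act at the chromosome axis, both rose in the KO lines. Smc1b, the meiotic form of the cohesin subunit SMC1, lies on chromosome 15 (ENSMUSG00000022432, 85064689 to 85131964, minus strand). It measured 806, 806, 724 and 523 units in KO lines 1 to 4, and 288 and 360 units in the WT libraries. KO lines 1 and 2 were the highest and line 4 the lowest, still 1.45-fold above the higher WT library. The log2 change was 1.09 (SE 0.202, 95% interval 0.62 to 1.57, adjusted p = 0.0162, limma). The somatic paralog Smc1a fell. It measured 2066, 2174, 2174 and 2270 units in KO lines and 2848 and 2832 units in WT libraries, a log2 change of -0.39 (adjusted p = 0.0236, limma). Smc1a lost its call without KO line 1, 2 or 3 (adjusted p up to 0.0864).

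Hormad1, a HORMA-domain protein of the unpaired chromosome axis, was the most abundant of the 8 genes per kilobase of exon. It lies on chromosome 3 (ENSMUSG00000028109, 95559677 to 95587671, plus strand) and measured 1300, 1097, 1097 and 744 units in KO lines 1 to 4, and 492 and 516 units in the WT libraries. Line 4 was the lowest here too, at 0.639 of the mean of the other lines (0.672 for Smc1b), and the groups did not overlap. The log2 change was 1.02 (SE 0.21, 95% interval 0.53 to 1.52, adjusted p = 0.0214, limma), and 1.18 without KO line 4 (adjusted p = 0.0108).

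The synaptonemal complex members did not pass. Sycp3, a protein of the lateral elements, lies on chromosome 10 (ENSMUSG00000020059, 88459569 to 88473236, plus strand). It measured 466, 412, 460 and 483 units in KO lines and 338 and 358 units in WT libraries. All KO lines were above WT, by a log2 change of 0.37 that missed the threshold (SE 0.116, 95% interval 0.10 to 0.65, adjusted p = 0.0674, limma). Its level is uncertain, since 52.2% of its 1264 exon bases overlap exons of Chpt1 on the opposite strand, and whether counting used strand is not given in the sources used here. Chpt1, an enzyme of phosphatidylcholine synthesis, measured 296, 246, 266 and 278 units in KO lines and 248 and 360 units in WT libraries (log2 change -0.14, adjusted p = 0.612, limma).

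Sycp1, the transverse filament that joins the lateral elements, lies on chromosome 3 (ENSMUSG00000027855, 102818499 to 102936100, minus strand). It measured 389, 421, 412 and 418 units in KO lines, between the WT libraries at 357 and 449 units. The log2 change was 0.03, with a 95% interval of -0.27 to 0.34 (adjusted p = 0.879, limma). That interval does not reach the log2 change of 1.02 seen for Hormad1.

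Tex11, an X-linked gene that promotes crossovers in spermatocytes, rose by the smallest amount among the called genes. It lies on chromosome X (ENSMUSG00000009670, 100838648 to 101059667, minus strand) and measured 466, 472, 486 and 528 units in KO lines 1 to 4, and 325 and 368 units in the WT libraries. The lowest KO line stood 1.27-fold above the higher WT library. The log2 change was 0.48 (SE 0.116, 95% interval 0.20 to 0.75, adjusted p = 0.035, limma).

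Taf7l, the germ cell paralog of the TFIID subunit TAF7, is the other X-linked member (ENSMUSG00000009596, 134460118 to 134476490, minus strand). It measured 102, 104, 98 and 102 units in KO lines and 62 and 56 units in WT libraries. The KO lines were close together (2.42% of all genes had a lower SD among the KO lines) and stood apart from WT. The log2 change of 0.66 did not pass (SE 0.209, 95% interval 0.16 to 1.15, adjusted p = 0.0709, limma). With a variance prior that ignores the level of the gene it passed, at an adjusted p of 0.0111 (limma). It did not pass after quantile normalization (log2 change 0.40, adjusted p = 0.214, limma) or trimmed-mean scaling (0.64, adjusted p = 0.0786, limma). The median deviation of chromosome X lay between -0.02 and 0.03 in the KO lines and at 0.07 and -0.07 in the WT libraries.

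Slc25a31, the ADP/ATP carrier of male germ cell mitochondria, lies on chromosome 3 (ENSMUSG00000069041, 40708855 to 40726096, plus strand). It measured 352, 332, 366 and 321 units in KO lines, and 119 and 209 units in WT libraries. The KO lines were alike and the WT libraries were not, with WT replicate 2 at 1.76-fold WT replicate 1. The log2 change was 1.05 (SE 0.212, 95% interval 0.54 to 1.55, adjusted p = 0.0208, limma). It was 0.67 without WT replicate 1 and 1.42 without WT replicate 2, and passed in both cases (adjusted p = 0.0157 and 0.00968).

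**Figure D2:**
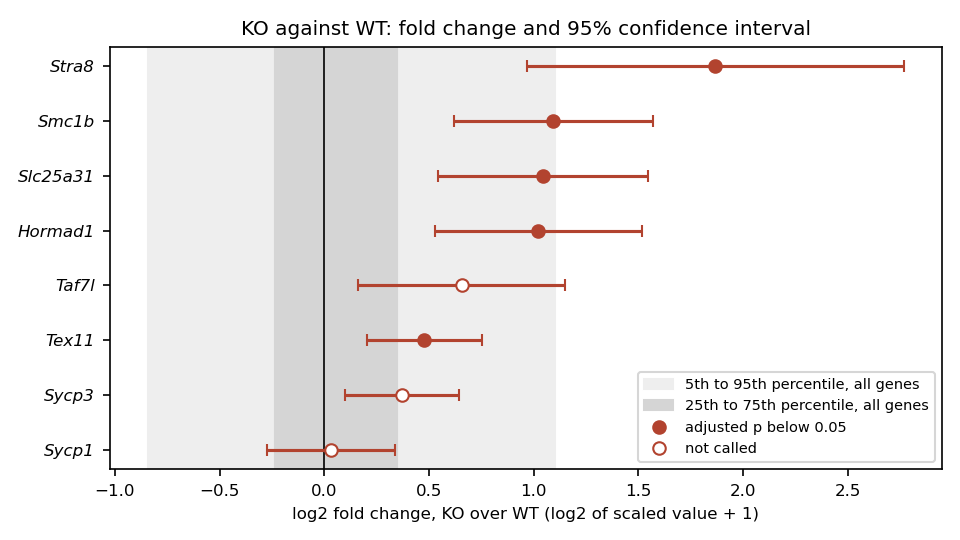
Log2 fold change of KO over WT for the 8 genes with its 95% confidence interval from limma, filled where the adjusted p was below 0.05. Grey bands span percentile ranges of all 10989 genes, as named in the legend; Stra8 at 1.87 lies above the 95th percentile (1.10), and Sycp1 at 0.03 in the middle.

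Per kilobase of merged exon, the order of levels differed between the groups. In KO lines it ran from Hormad1 (613 ± 134 units per kb, SD, n = 4) and Sycp3 (360 ± 24.1) over Smc1b (177 ± 33.0), Slc25a31 (161 ± 9.46), Tex11 (135 ± 7.71) and Sycp1 (115 ± 4.08) to Stra8 (57.5 ± 14.3) and Taf7l (45.2 ± 1.12). Among neighbours in this order, the libraries of Smc1b and Slc25a31 overlapped, as did those of Stra8 and Taf7l. In WT libraries Hormad1 (291 ± 9.82 units per kb, SD, n = 2) and Sycp3 (275 ± 11.2) also led. Sycp1 (113 ± 18.3) and Tex11 (95.6 ± 8.39) came next there, then Smc1b (80.1 ± 12.6), Slc25a31 (77.1 ± 29.9), Taf7l (26.3 ± 1.89) and Stra8 (10.5 ± 8.63). Among neighbours in the WT order, the libraries of Sycp1 and Tex11 overlapped, and so did those of Smc1b and Slc25a31. Beyond neighbours, the libraries of Tex11 overlapped those of Slc25a31 in WT and those of Smc1b in KO lines.

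Hormad1, Smc1b and Stra8 varied among KO lines with an SD of 0.34, 0.29 and 0.31 on the log2 scale, where the median over all genes was 0.15. The other 5 genes lay below that median. KO line 4 was the lowest of the 4 for Hormad1, Smc1b and Slc25a31 and the highest for Stra8, Sycp3 and Tex11.

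How firmly a call stood depended on the libraries. Without KO line 2 or without KO line 3, none of the 8 genes passed in limma (6 and 7 at an unadjusted p under 0.05), and the calls over all genes also fell, to 237 and 306 higher. Leaving out KO line 1 kept 2 of the 8 genes past the threshold, and leaving out WT replicate 2 kept 3. Leaving out KO line 4 kept 4. Leaving out WT replicate 1 kept 3 (Stra8, Smc1b and Slc25a31) and added Taf7l (adjusted p = 0.0421), and 2004 genes in all were then called higher. A fit with 1 WT library assumes that this library varies like the KO lines. The call of Smc1b was lost without KO line 2 or 3 (adjusted p up to 0.0569). That of Slc25a31 was lost without KO line 1, 2 or 3 (up to 0.0704). Hormad1 lost it without KO line 2 or 3 or either WT replicate (up to 0.0703), and Stra8 without KO line 1, 2 or 3 or WT replicate 2 (up to 0.0707). Tex11 lost it without each library but WT replicate 2 (up to 0.103). The 7 genes other than Sycp1 stayed positive throughout, with log2 changes of 0.92 to 1.18 for Hormad1, 0.94 to 1.25 for Smc1b and 0.39 to 0.56 for Tex11.

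**Figure D3:**
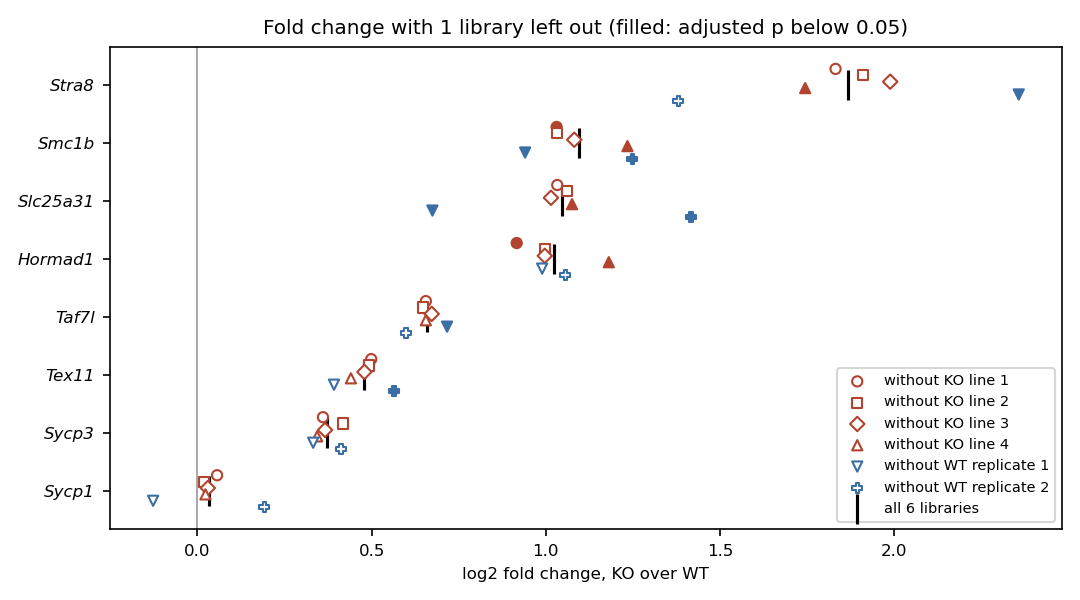
Log2 fold change of KO over WT with each library left out in turn, one symbol per library left out, filled where the adjusted p was below 0.05, and a black tick for all 6 libraries. Stra8 and Slc25a31 move most with the WT library left out, and Sycp1 is the 1 gene that crosses 0 (to -0.13).

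Other genes of the meiotic pathway were described in 5 lists. These held 26 names for meiotic entry, 13 for the synaptonemal complex and axis and 22 for cohesin. The recombination list held 44, and that of spermatocytes and spermatids 62. Some names are synonyms of one another, and names not among the measured genes could not be described. In the list of meiotic entry, 4 of 18 measured genes rose (22.2%, against 9.75% of all genes). None fell, against 7.34% of all genes, and 14 did not pass. The median log2 change was 0.14 (0.04 over all genes). In limma 8 of the 18, or 44.4%, had an unadjusted p under 0.05 in either direction, against 36.0% of all genes. Besides Stra8, the genes that rose were Rbm46, an RNA-binding protein that germ cells need for meiosis, Rec8, the meiotic kleisin, and Dazl, an RNA-binding protein that licenses germ cells. Rbm46 measured 209, 184, 173 and 184 units in KO lines and 2 and 1 units in WT libraries (log2 change 3.64, adjusted p = 0.00181, limma). With WT this low the size depended on the pseudocount, at 5.21 with 0.25 and 1.80 with 5. Rbm46 and Stra8 reached 80 units in KO lines alone. Rec8 measured 409, 418, 506 and 256 units in KO lines and 163 and 86 units in WT libraries (log2 change 1.58, adjusted p = 0.0202, limma). Dazl, at 1572, 1990, 1690 and 1178 units in KO lines and 776 and 632 units in WT libraries, had a log2 change of 1.16 (adjusted p = 0.015, limma). Rec8 lost its call without KO line 2, KO line 3 or WT replicate 2 (log2 1.17 to 1.99 over the 6 omissions, adjusted p up to 0.0801). Dazl lost it without KO line 3 or WT replicate 2 (adjusted p up to 0.0639). Like Hormad1 and Smc1b, Rec8 and Dazl were lowest among the KO lines in line 4. The PRC1.6 genes on this list (Mga, Max, E2f6, Pcgf6 and L3mbtl2) had log2 changes of -0.32 to 0.23, and none passed. L3mbtl2 was lower in every KO line than in both WT libraries (log2 change -0.32, adjusted p = 0.0686, limma), as were 19.6% of all genes. For the others the groups overlapped. The retinoic acid receptors Rara and Rarg had log2 changes of 0.53 and 0.43 and did not pass either (adjusted p = 0.12 and 0.097, limma).

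In the list of the synaptonemal complex and axis, 3 of 10 measured genes rose (30%, against 9.75% of all genes). None fell, against 7.34% of all genes, and 7 did not pass (median log2 0.56). In limma 6, or 60.0%, had an unadjusted p under 0.05, against 36.0% of all genes. Sycp2, which forms the lateral element with SYCP3, measured 272, 248, 270 and 244 units in KO lines and 76 and 37 units in WT libraries. Its log2 change of 1.99 (adjusted p = 0.00595, limma) held with each library left out. It too reached 80 units in KO lines alone, as 2 of the 10 did. Hormad2, the relative of Hormad1, had 246, 258, 211 and 205 units in KO lines and 132 and 110 units in WT libraries (log2 change 0.85, adjusted p = 0.0202, limma). It lost its call for 4 of the 6 choices of omitted library.

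Of 17 measured cohesin genes, 3 rose (Rec8, Smc1b and Sgol2), 1 fell (Smc1a) and 13 did not pass, with a median log2 change of 0.16. The share called higher was 17.6%, against 9.75% of all genes, and 7.34% of all genes were called lower. An unadjusted p under 0.05 was found for 4 of the 17, or 23.5%, against 36.0% of all genes. Sgol2, which protects centromeric cohesin, measured 3116, 3040, 2621 and 3040 units in KO lines and 1610 and 1642 units in WT libraries (log2 change 0.85, adjusted p = 0.00528, limma). It held with each library left out.

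Of 22 measured meiotic recombination genes, 6 rose (27.3%, against 9.75% of all genes). None fell, against 7.34% of all genes, and 16 did not pass (median log2 0.36). In limma 12, or 54.5%, had an unadjusted p under 0.05, against 36.0% of all genes. Cntd1, a cyclin-like crossover factor, measured 126, 136, 121 and 104 units in KO lines and 12 and 8 units in WT libraries (log2 change 2.47, adjusted p = 0.00435, limma). Zcwpw1, a reader of the histone marks that PRDM9 writes, had 850, 688, 689 and 536 units in KO lines and 176 and 148 units in WT libraries (log2 change 1.98, adjusted p = 0.00326, limma). Both held with each library left out, and Cntd1 reached 80 units in KO lines alone. The size for Cntd1 depended on the pseudocount, at 3.21 with 0.25 and 1.22 with 5. The crossover helicase Hfm1 and the mismatch repair protein gene Mlh3 rose by 1.21 and 0.59 on the log2 scale (adjusted p = 0.0427 and 0.0136, limma). The WT libraries of Hfm1 lay at 134 and 50 units, and it lost its call for each omitted KO line. Its log2 change was 1.81 without WT replicate 1 and 0.61 without WT replicate 2. Mlh3 lost its call without KO line 2 or 3 (adjusted p up to 0.0617).

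Of 22 measured spermatocyte and spermatid genes, 6 rose (27.3%, against 9.75% of all genes), 1 fell and 15 did not pass (median log2 0.65). Over all genes 7.34% were called lower. In limma 14, or 63.6%, had an unadjusted p under 0.05, against 36.0% of all genes. Of these 22, 6 reached 80 units in KO lines alone, and 3 of the 6 that rose (Zpbp, Tex16 and Tuba3b) were among them. Zpbp, an acrosomal protein gene, measured 159, 172, 200 and 150 units in KO lines and 52 units in both WT libraries (log2 change 1.46, adjusted p = 0.00742, limma). It held with each library left out, and its log2 change was 0.95 with a pseudocount of 5. The X-linked gene Tex16 and the piRNA pathway gene Mael rose by 1.74 and 1.08 (adjusted p = 0.0156 and 0.024, limma). Tex16 lost its call without KO line 2 or 3 and after quantile normalization (adjusted p up to 0.0607 and 0.0588), and its log2 change was 0.94 with a pseudocount of 5. Mael lost its call without KO line 2, KO line 3 or WT replicate 2 (adjusted p up to 0.0834). Tuba3b, a testis tubulin gene, had a log2 change of 2.38 (adjusted p = 0.0169, limma), but it is nearly identical to Tuba3a, so its level is uncertain. Its log2 change was 3.54 with a pseudocount of 0.25 and 1.07 with 5, and its call was lost without KO line 2 or 3 (adjusted p up to 0.0669). The gene that fell, Tex264, named after its values were seen, is an endoplasmic reticulum autophagy receptor despite its testis-derived name (log2 change -0.60, adjusted p = 0.0375, limma).

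**Figure D4:**
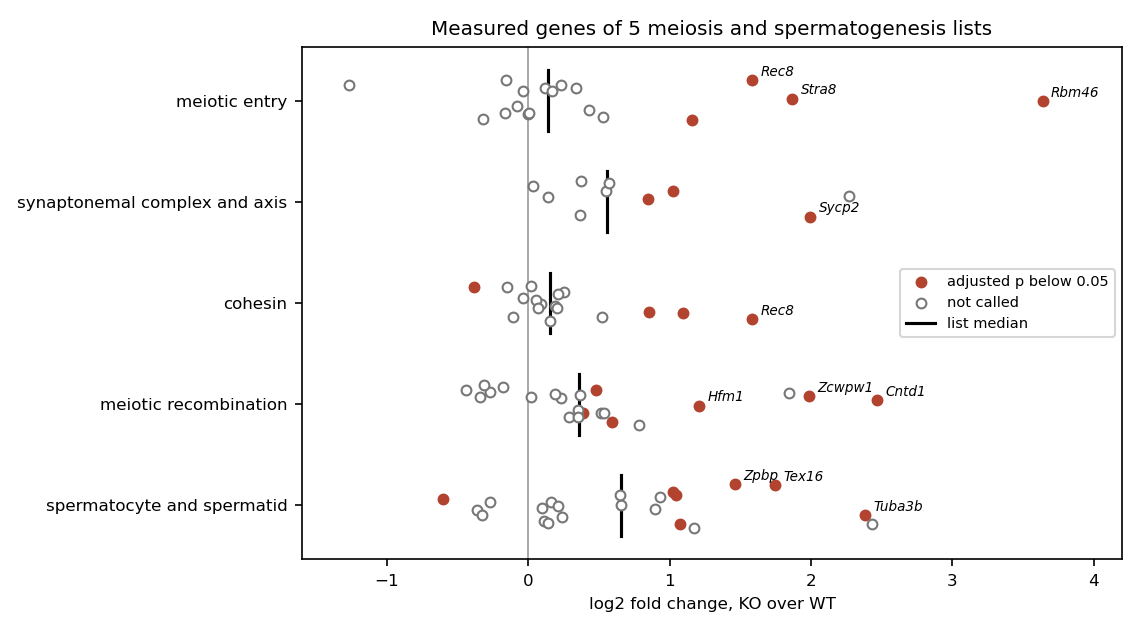
Log2 fold change of KO over WT for the measured genes of the 5 lists, red where the adjusted p was below 0.05 and open otherwise, with the list median as a black line. Most red points lie right of 0; Smc1a (cohesin) and Tex264 (spermatocyte and spermatid) are the 2 on the left.

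The counts of these lists moved with the libraries, as did those over all genes. Over all genes, 1071 were called higher with all 6 libraries, 237 without KO line 2 and 306 without KO line 3. With 1 library left out, genes called higher numbered 1 to 6 for meiotic entry, 1 to 4 for the synaptonemal complex and axis, 1 to 4 for cohesin, 2 to 8 for recombination and 1 to 8 for spermatocytes and spermatids. Meiotic entry was at its lowest without KO line 3 or WT replicate 2, and the other 4 lists without KO line 2 or KO line 3.

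The 5 genes outside the 8 whose pattern over the 6 libraries was most like the mean of the 8 were Cnot6l, a deadenylase subunit (Pearson r = 0.999), Ago1, an Argonaute protein (0.998), Rtn4ip1 (0.997), the Ddx5 paralog Ddx17 (0.997) and Alg6, a glucosyltransferase (0.996). These r are over n = 6 libraries that share 2 groups and 1 normalization, and 904 of 10973 genes had an r of at least 0.9. Ago1 measured 2150, 2014, 1981 and 2003 units in KO lines and 1267 and 1277 units in WT libraries. Like the mean of the 8, by likeness to which it was chosen, it was highest in KO line 1. Ddx17 measured 12197, 10934, 10063 and 10934 units in KO lines and 4395 and 4742 units in WT libraries.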

How the data were processed

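RNA sequencing of 4 KO and 2 WT libraries was analysed from the authors' deposited table, 1 value per gene and library. RSEM 1.2.17, Bowtie2 2.2.0 and mm10 are listed in the submitters' processing notes. Neither annotation, strand setting nor normalization is given in the sources used here. The name of the authors' deposited table calls the values CPM, but they are whole numbers summing to 14612799 to 14722877 per library with near-equal quantiles, so they were treated as a normalized score. Since depth is unknown, counting error cannot be stated. Such values hide any change in total RNA. They were divided by 14.7, a constant set from the mean library total. The log2 of this plus 1 was fitted by group with limma 3.58.1 under R 4.3.3 (eBayes, mean-variance trend, two-sided, 4 residual degrees of freedom). Fold changes on this scale understate the change of low genes. The filter, 1 scaled unit or more in 2 libraries or more, removed no gene. The fit was tested on simulated data. Positions come from GENCODE M21 (mm10), which matched 10941 genes, and promoters from RefSeq (GRCm38.p6). Alternatives were the pseudocount, the filter, the scaling (the trimmed mean computed directly, without weights), chromosome centring, the trend, a replicate block, and each library left out. The members and lists were chosen with earlier results of these data known. All members are named; in each list up to 4 called genes with the largest change, and the 5 genes most like the members' mean.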

Additional observations from a re-analysis of the deposited data

Results flagged for a closer look

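Among the 37 named genes, the 4 KO lines were searched for a line far from the others. Sgol2 had such a line: KO line 3 measured 2621 units, and the other KO lines 3040 to 3116. Chance alone marks about 1 in 20 such groups.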

How the results depend on the processing

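Under the 8 alternatives that kept all 6 libraries and had no block, the same 5 genes of the 8 passed. Taf7l joined them without the mean-variance trend, and none was called lower. The changed filters among these alternatives removed no gene, so they repeated the main fit and could not differ from it. With a replicate block, 0 of the 8 passed in limma (4 at an unadjusted p under 0.05), and over all genes 2 were higher and 18 lower. KO numbers name lines and WT numbers name replicates, so by their labels they share only a number. The deviations of same-numbered libraries correlated at 0.145 and 0.097. With 1 library left out, 0 to 4 of the 8 passed as higher, and over all genes 237 to 2004 were higher and 235 to 1300 lower. Over all genes the lowest counts were without KO line 2 and the highest without WT replicate 1; the cause was not tested. Sycp1 turned negative (-0.13) without WT replicate 1 and was 0.19 without WT replicate 2. Stra8, the lowest of the 8 in WT, moved most of them with the pseudocount, at 2.41 with 0.25 and 0.94 with 5, and was 1.27 after quantile normalization. Of all alternatives for the 37 named genes, 465 kept the direction and the side of the threshold, 83 lost the call, 2 gained it and 1 turned sign. The 465 include the changed filters, which could not differ.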

Other observations

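Markers of primordial germ cells, the embryonic precursors of germ cells, were higher too. Of 8 measured markers 6 rose, none fell and 2 did not pass, with a median log2 change of 1.00. Over all genes, 9.75% were called higher and the median log2 change was 0.04. None of the 8 fell at an unadjusted p under 0.05 in limma. Tfap2c, a transcription factor of germ cell specification, measured 1532, 1172, 1152 and 816 units in KO lines and 449 and 496 units in WT libraries (log2 change 1.25, adjusted p = 0.0159, limma). Ddx4, the germ cell helicase called Vasa, measured 268, 321, 364 and 440 units in KO lines and 108 and 186 units in WT libraries (log2 change 1.19, adjusted p = 0.0255, limma). Dazl and Mael, which also stand on lists above, and the growth factor receptor Kit and the regulator Prdm14, both named after their values were seen, were the others (log2 change 0.68 for Kit and 0.92 for Prdm14). KO line 4 was the lowest KO line for Tfap2c, Dazl, Mael and Kit, and the highest for Ddx4. Several of these genes are also expressed in embryonic stem cells. Tfap2c lost its call for 2 of the 6 choices of omitted library, with an adjusted p of at most 0.0565, and Ddx4 for 3, at most 0.0787 (limma).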
